A study of Mus musculus with 4 samples.

Results

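Endothelial cells line the blood vessels of the brain. The nuclei described here were picked from single-nucleus RNA-seq libraries of mouse hippocampus by the UMIs (unique molecular identifiers, each standing for 1 captured transcript) of 8 vessel genes. A barcode with at least 400 UMIs and at most 5% mitochondrial UMIs was a member when Flt1, Cldn5, Adgrl4, Slco1a4, Ptprb, Pecam1, Tek and Abcb1a together gave at least 3 UMIs, from at least 2 of these genes. Their sum also had to exceed that of Slc1a3, Mertk, Mog, Prox1, Glis3, Man1a and Grik4, which mark astrocytes, oligodendrocytes and hippocampal neurons. The rule found 261 members among 78883 kept barcodes. Trained 1 held 14 of 17269, Trained 2 held 61 of 17949, Untrained 1 held 110 of 28219 and Untrained 2 held 76 of 15446.

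All 4 libraries came from ArcCreERT2::eYFPflx mice, in which a tamoxifen-inducible Cre driven by the Arc gene switches on eYFP in neurons that expressed Arc; the controls carry both alleles too, and the tag plays no part in how the nuclei were chosen here. The Trained mice (n = 2) learned active place avoidance, a task in which a mouse on a rotating arena keeps out of a sector where it would be shocked, and the Untrained mice (n = 2) did not. Hippocampus was taken 3 days after the retention test, with no recall session in between, so the comparison asks what differs while the memory is kept. Each library is taken as 1 mouse, the age and sex are not given in the sources used here, and p-values measure the spread between these 4 libraries.

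In the brain, endothelial cells form the blood-brain barrier. Tight junctions between them close the gaps, a small set of transporters carries glucose, amino acids, hormones and iron across, and efflux pumps return drugs and lipids to the blood. Wnt signals from neural cells keep this programme on, ETS-family transcription factors give the cells their vascular identity, and pericytes wrap the capillary wall and share its basement membrane. Arteries, capillaries and veins differ in a graded set of genes.

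Summed UMIs were 23155826 and 26369095 in Trained 1 and Trained 2, and 39749125 and 24636056 in Untrained 1 and Untrained 2. Members held a median of 633, 732, 674 and 696 UMIs in this order of libraries, against 530, 737, 708 and 947 in all other kept barcodes. Their median mitochondrial share was 0.449%, 0.637%, 0.777% and 0.795%, against 0.305%, 0.328%, 0.591% and 0.444% in the other barcodes of the same libraries. The deepest member had 5724 UMIs, and 6 members, all untrained, had over 2000. The summed profile of the members rested on 10380, 48907, 96227 and 72122 UMIs, so Trained 1 has the least weight behind each of its values. Any pair of libraries shared between 748 and 1596 barcodes and between 69 and 137 kept ones; no barcode was a member in more than 1 library.

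The start sites of 3 gate genes are shown because many vascular enhancers and promoters are known to carry ETS sites, and because these gate genes differ in how many such matches their windows hold. Windows run 5′ to 3′ from 250 bases before to 50 bases after the start, from RefSeq's GRCm38.p6 table. Capitals mark matches, on either strand, to 3 forms of the ETS core. The first is AGGAAG. The second is CGGAAG. The third is GGAAGT. The Flt1 window is chr5:147725962-147726261 on the minus strand, the Slco1a4 window chr6:141856171-141856470 on the minus strand and the Cldn5 window chr16:18776597-18776896 on the plus strand.
Flt1: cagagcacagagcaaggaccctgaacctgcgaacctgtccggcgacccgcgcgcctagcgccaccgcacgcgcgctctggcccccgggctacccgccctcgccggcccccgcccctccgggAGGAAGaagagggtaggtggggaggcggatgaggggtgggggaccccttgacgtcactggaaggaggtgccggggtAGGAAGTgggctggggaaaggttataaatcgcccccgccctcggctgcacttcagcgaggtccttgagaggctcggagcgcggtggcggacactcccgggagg
Slco1a4: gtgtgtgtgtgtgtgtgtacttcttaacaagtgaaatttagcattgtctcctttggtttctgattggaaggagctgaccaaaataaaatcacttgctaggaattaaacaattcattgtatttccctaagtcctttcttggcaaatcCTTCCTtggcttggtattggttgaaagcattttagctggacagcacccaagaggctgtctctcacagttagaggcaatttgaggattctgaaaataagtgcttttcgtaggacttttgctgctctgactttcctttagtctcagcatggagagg
Cldn5: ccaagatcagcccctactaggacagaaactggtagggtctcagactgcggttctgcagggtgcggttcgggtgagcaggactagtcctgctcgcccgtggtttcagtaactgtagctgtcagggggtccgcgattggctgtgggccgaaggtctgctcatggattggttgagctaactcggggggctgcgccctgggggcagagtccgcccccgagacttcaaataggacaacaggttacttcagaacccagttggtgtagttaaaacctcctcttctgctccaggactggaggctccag
The Flt1 window holds 3 matches, of which 2 overlap each other, the Slco1a4 window 1 on the opposite strand and the Cldn5 window 0.

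Of the 28 genes made up of the gate genes and the 20 leading genes outside the gate, 22 had an entry in the promoter table, 6 of them gate genes, with 26 windows. AGGAAG was present in 57.7% of these windows and in 35.35% of all 32851 windows in the table. For GGAAGT, which can overlap AGGAAG, the shares were 38.5% and 23.8%. CGGAAG was found in 3.85% against 16.9%, the forkhead core TGTTTAC in 7.69% against 3.65%, and the E-box CACGTG in 3.85% against 7.15%. These are counts of letters in short windows, not sites of binding, and the distal enhancers of these genes were not looked at.

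Gate genes chose the members, so their levels are a description. Flt1, which encodes a receptor for VEGF, gave 12, 107, 173 and 120 UMIs in Trained 1, Trained 2, Untrained 1 and Untrained 2, and was found in 85.1% of members against 0.866% of other barcodes and 1.36% of astrocyte-gated nuclei. Slco1a4, an organic anion transporter of the barrier, was found in 62.5%, Adgrl4, an adhesion G-protein-coupled receptor, in 51.0%, Ptprb, a receptor phosphatase that acts on the Tek receptor, in 33.0%, and the efflux pump gene Abcb1a in 28.7%. Pecam1, an adhesion protein between endothelial cells, was found in 14.9%, the angiopoietin receptor Tek in 14.6% and the tight junction claudin Cldn5 in 14.2%. After each barcode was thinned to 400 UMIs these shares fell to 64.8% for Flt1 and 8.81% for Cldn5. In astrocyte-gated nuclei, whose median depth of 622 to 748 UMIs was close to that of members, each gate gene was found in at most 1.36%. The astrocyte gate fixes this in part, since its genes had to exceed a sum that included Flt1, Cldn5, Adgrl4, Slco1a4 and Ptprb. Members were also left out of the astrocyte-gated nuclei. The defining vessel gene Cldn5 is thus rarely seen in a single member at this depth, and the gate rests mostly on the other genes.

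Many members passed narrowly. A gate sum of 3 was held by 111 members, 4 by 68 and 5 or more by 82, the highest being 18 in Untrained 2. Just outside the rule, 152 barcodes had 2 gate UMIs from 2 genes and 18 had at least 3 UMIs from 1 gene alone, each exceeding the genes of other classes. The 8 further barcodes met the other terms but did not exceed the genes of other classes. Gate UMIs came from 2 genes in 77 members, from 3 in 120 and from at least 4 in 64. No UMI of the 7 genes of other classes was found in 165 members.

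The label was checked with 20 endothelial markers that the gate did not use. Their summed level, in CPM (a gene's share of the summed UMIs, on the usual scale), was 2505 and 5091 in Trained 1 and Trained 2 and 2681 and 4534 in Untrained 1 and Untrained 2, against 254 to 336 in the other barcodes of the same libraries and 482 in all astrocyte-gated nuclei. All 4 libraries lay above the other nuclei, Trained 1 and Untrained 1 lower than the other two. A UMI of at least 1 of the 20 genes was found in 223 of 261 members (85.4%). Of the 20, 14 were higher in members in all 4 libraries; Cdh5, Egfl7, Esam, Kdr, Tie1 and Ly6c1, which encode endothelial surface, junction and secreted proteins, were at 0 UMIs in the 14 members of Trained 1. Over all genes with at least 20 UMIs in members, 530 of 2806 (18.9%) were higher in members in all 4 libraries, with a median log2 ratio of 0.14, and 11 of the 13 markers with that many UMIs were. Without Trained 1 all 20 were higher in the other 3 libraries. These values go with the label for the pooled nuclei; Cdh5, a defining junction gene, stood at 7 UMIs in all members together and Kdr, the main VEGF receptor, at 5. With at least 1000 UMIs a member, 3 of the 20 were higher in all 4 libraries, and with at least 5 gate UMIs 4 were; Trained 1 then held 2 and 3 members.

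**Figure D1:**
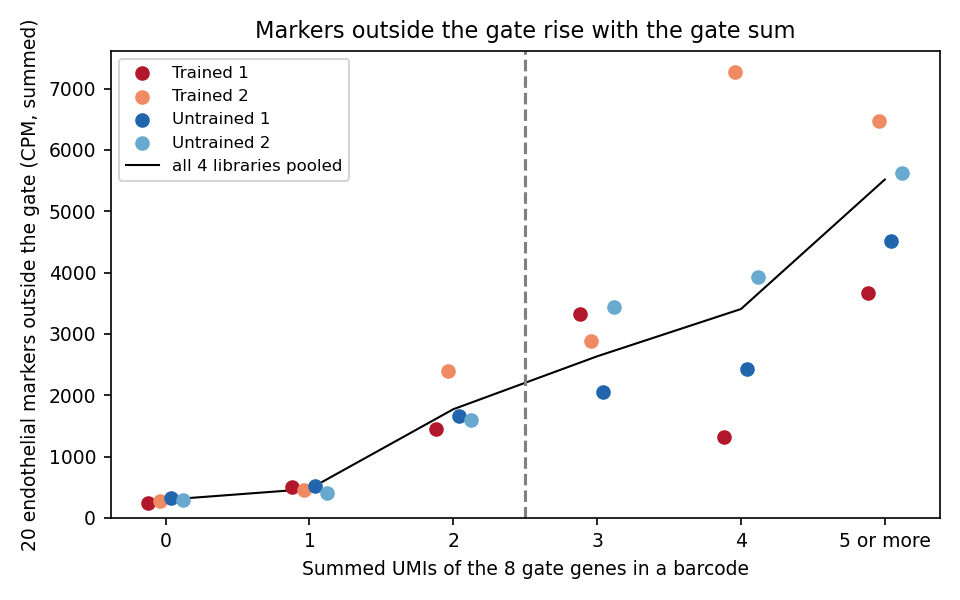
Summed CPM of the 20 endothelial markers outside the gate (vertical axis) in barcodes grouped by their gate UMIs (horizontal axis), 1 point for each library and a line for the 4 libraries pooled; the dashed line marks the 3 UMIs the rule asks for. The pooled level is 294 CPM at a sum of 0 and 5517 CPM at 5 or more, with a wide spread between libraries at a sum of 4, where Trained 1 has 4 barcodes. At 3 or more, members alone are drawn.

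These outside markers were graded with the gate sum. Pooled over libraries, their level was 294 CPM at a gate sum of 0, 470.5 at 1, 1771 at 2, 2634 at 3, 3405 at 4 and 5517 at 5 or more. The 152 barcodes just outside, with 2 UMIs from 2 genes, stood at 1921 CPM, nearer to the members just inside than to barcodes without a gate UMI. No gap lay at the threshold. How many members are barcodes of other cells, and how many endothelial nuclei the rule missed, was not tested.

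The 20 leading genes outside the gate were taken by the ratio of members to all other kept barcodes, with 10 CPM added to both levels. Mecom, a zinc finger transcription factor, led with 482 and 1125 CPM in Trained 1 and Trained 2 and 603 and 859.7 CPM in Untrained 1 and Untrained 2, against 15.2 CPM in other nuclei, a log2 ratio of 4.99. Its lowest library still lay above every pooled level outside the members. Hmcn1, an extracellular matrix protein, stood at 385 and 552 CPM in trained members and 177 and 236 CPM in untrained members, and Atp10a, a phospholipid flippase, at 482 and 797 CPM against 218 and 652 CPM. The next by ratio were the adhesion receptor gene Adgrf5 (log2 ratio 4.11), the ETS factor Fli1 (4.06), the zinc finger gene Zfp366 (4.03), Ccdc141 (3.97), Rgs5 (3.96), the collagen-binding integrin Itga1 (3.96), Atp13a5 (3.95) and the chemokine Cxcl12 (3.94). They were followed by Tbc1d4, Slco1c1, Acer2, Rbpms, Epas1, Cyyr1, Eng, Clec2d and Abcg2, the last with a log2 ratio of 3.65. The list mixes transcription factors, transporters and receptors of the vessel wall with Rgs5 and Atp13a5, which are known from pericytes. Slco1c1, a thyroid hormone transporter of endothelial cells and astrocytes, was the one of the 20 with the highest level in astrocyte-gated nuclei, 158 CPM against 439 CPM in members and 20.9 CPM in other nuclei.

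**Figure D2:**
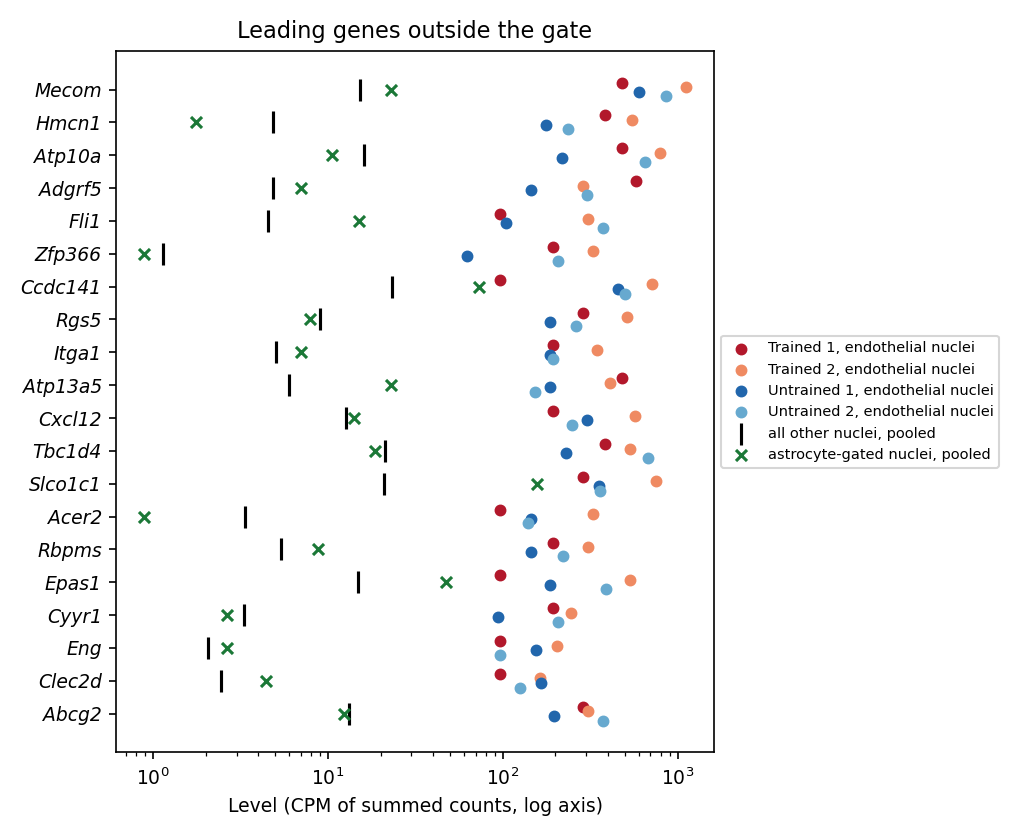
Levels of the 20 leading genes outside the gate (rows) in CPM on a log axis, as 1 point for each library's endothelial nuclei, a black bar for all other nuclei pooled and a green cross for astrocyte-gated nuclei pooled. Mecom lies between 482 and 1125 CPM in the members of the 4 libraries and at 15.2 CPM in the other nuclei; for Ccdc141 the members of Trained 1 (96.3 CPM, 1 UMI) lie far to the left of the other libraries.

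Barrier transporters stood high in members. The summed level of the 24 genes was 3554 CPM in members and 745 CPM in other nuclei, and 10 of the 12 genes with at least 20 UMIs were higher in all 4 libraries (background 18.9%). Slc2a1, the glucose transporter of the barrier, gave 2, 14, 9 and 28 UMIs and a log2 ratio of 3.37. Abcg2, an efflux pump, gave 3, 15, 19 and 27 UMIs (3.65), Slc7a5, the large neutral amino acid transporter, 1, 4, 13 and 19 UMIs (3.21), and Abcc4, an organic anion pump, 3, 17, 18 and 13 UMIs (2.98). The transferrin receptor gene Tfrc gave 1, 5, 28 and 13 UMIs (1.70), and the cationic amino acid transporter Slc7a1 gave 0, 9, 12 and 6 UMIs (2.26). Glucose, amino acid, anion and iron carriers were thus all seen, each with few UMIs in Trained 1. Lrp1, a lipoprotein receptor found in many brain cells, stood lower in members, with a log2 ratio of -0.22, and was higher in 1 of 4 libraries.

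Endothelial transcription factors stood high as well. All 10 of the 22 genes that had at least 20 UMIs were higher in members in all 4 libraries, with a median log2 ratio of 3.35. Epas1, a hypoxia-inducible factor, gave 1, 26, 18 and 28 UMIs and a log2 ratio of 3.73. Klf2, a factor induced by blood flow, gave 1, 5, 10 and 13 UMIs (3.26), the ETS factor Erg 1, 4, 6 and 11 UMIs (3.15), and Foxo1, which restrains vessel growth, 1, 4, 10 and 12 UMIs (1.41). Ebf1, a factor of pericytes and other mesenchymal cells too, gave 10, 44, 53 and 49 UMIs (3.45). Foxp1, which neurons also express, had the smallest ratio of the 10, at 0.82.

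Junction genes were less even. Their summed level was 2421 CPM against 986 CPM, and 6 of the 9 with at least 20 UMIs were higher in all 4 libraries. Cgnl1, a junction plaque protein, had a log2 ratio of 2.97, Ocln, the tight junction protein occludin, 2.46 and the adhesion molecule Jam2 2.45. Of these, Cgnl1 and Ocln were at 0 UMIs in Trained 1. Tjp1, the scaffold protein ZO-1, gave 7, 41, 54 and 70 UMIs, and its 756 CPM in members stood against 305.5 CPM in other nuclei, a log2 ratio of 1.28.

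Genes of Wnt signalling included some well above the other nuclei. Lef1, a transcription factor at the end of the Wnt pathway, gave 5, 28, 22 and 30 UMIs, at 482, 572.5, 229 and 416 CPM, with a log2 ratio of 2.79. Apcdd1, a Wnt inhibitor that endothelial cells induce under Wnt, gave 3, 6, 10 and 7 UMIs (2.86). Together with the co-receptor gene Lrp6 (0.94) and Tcf7l2 (0.30), all 4 genes of the list with at least 20 UMIs were higher in all 4 libraries. Adgra2, a co-activator for Wnt7 ligands, gave 17 UMIs in all and none in Trained 1.

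Genes of other vessel pathways had fewer UMIs. Of TGF-beta and BMP genes, the co-receptor Eng gave 1, 10, 15 and 7 UMIs with a log2 ratio of 3.68, and Id1, a BMP target, 1, 6, 9 and 8 UMIs (2.93). Of the VEGF and angiopoietin list, outside the gate, Nrp1 alone reached 20 UMIs, and with 224 CPM against 222 CPM its level nearly equalled that of the other nuclei. Of the Notch list, Maml2 and Maml3 reached 20 UMIs, with log2 ratios of 0.47 and 0.12. Basement membrane and integrin genes were led by Itga1, Fn1 (fibronectin, log2 ratio 3.32) and the laminin receptor subunit Itga6 (2.24), and 3 of the 7 genes with at least 20 UMIs were higher in all 4 libraries. The interleukin receptor gene Il1r1, counted among venous and inflammatory genes, gave 2, 6, 3 and 16 UMIs (2.65).

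Position along the vessel tree could be read only in part. A UMI of the 12 capillary genes was found in 188 members, of the 15 arterial genes in 43, of the 12 venous genes in 44 and of none of these lists in 48; 12 members had both arterial and venous UMIs. Summed levels in members and other nuclei were 1858 and 363 CPM for capillary, 246 and 60.2 CPM for arterial and 365 and 70.9 CPM for venous genes. No arterial gene reached 20 UMIs. Vwf, the clotting factor of larger vessels, gave 3, 4, 8 and 12 UMIs with a log2 ratio of 3.47. The lists differ in size and in how much RNA their genes make, and the capillary list holds Rgs5, so these counts are not shares of vessel types.

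Markers of other cell types were summed in the same way. Mural cells (pericytes and smooth muscle) stood out: their 11 markers summed to 867 and 1656 CPM in members of Trained 1 and Trained 2 and to 748 and 873.5 CPM in Untrained 1 and Untrained 2, against 45.9 CPM in other nuclei. Neuron markers were at 15060 CPM in members and 24720 CPM in other nuclei, and all 7 were lower in members in all 4 libraries. Fibroblast markers were at 175.7 CPM in members (96.3 and 184 CPM in trained, 208 and 139 CPM in untrained) and 34.2 CPM in other nuclei, and 1 of the 8, Bnc2, was at 0 UMIs. Oligodendrocyte markers were at 1217 and 1448 CPM, astrocyte markers at 1950 and 1347 CPM (9083 CPM in astrocyte-gated nuclei), and microglia and macrophage markers at 369 and 290.1 CPM. Choroid plexus markers were at 2216 and 1758 CPM in trained and 634 and 1095 CPM in untrained members. Other nuclei of the same libraries lay likewise, at 1763 and 1612 CPM in trained and 689 and 823 CPM in untrained libraries. Pooled, these markers were at 1094 CPM in members and 1104 CPM in other nuclei. Red cell markers were at 0 and 266 CPM in trained and 208 and 804 CPM in untrained members, the highest through 37 UMIs of the globin gene Hbb-bs in Untrained 2. In other nuclei red cell markers were at 175 CPM. In astrocyte-gated nuclei neuron markers summed to 15500 CPM, close to their level in members. The part of neuronal RNA in the values of single genes was not tested.

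**Figure D3:**
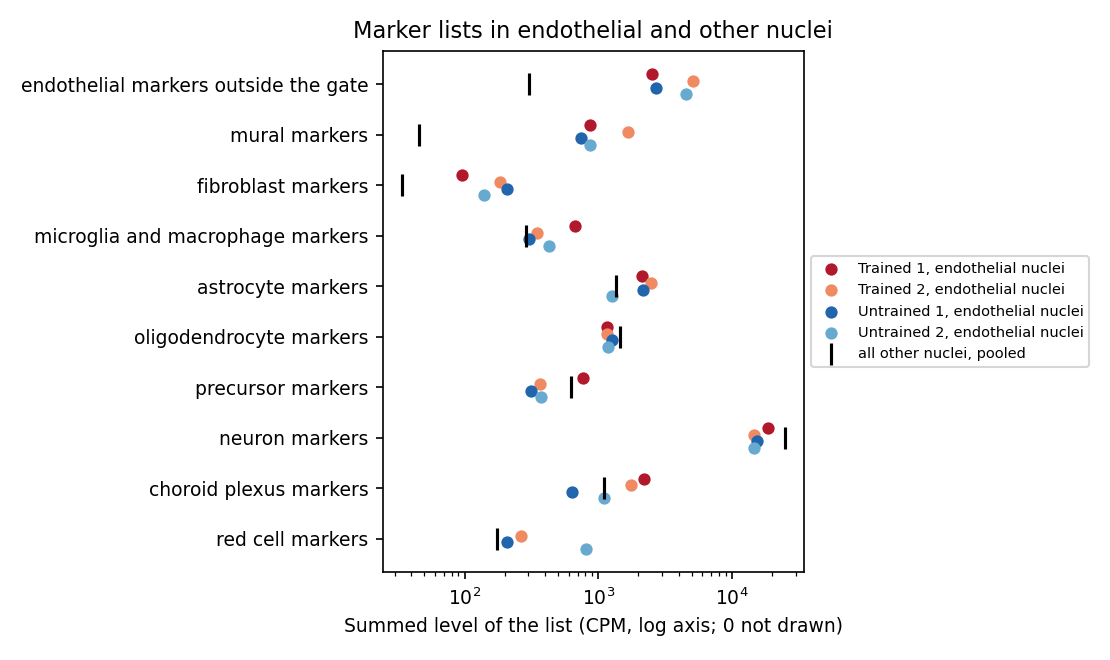
Summed levels of 10 marker lists (rows) in CPM on a log axis, with 1 point for each library's endothelial nuclei and a black bar for all other nuclei pooled; the red cell value of 0 in Trained 1 is not drawn. Endothelial and mural lists lie far to the right of the bar in all 4 libraries, and neuron markers lie to its left.

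Mural RNA was concentrated in some members. At least 3 UMIs from at least 2 mural genes were found in 27 members, 0 of Trained 1, 11 of Trained 2, 9 of Untrained 1 and 7 of Untrained 2, out of 68 kept barcodes with that many. In these 27 members Pdgfrb, the receptor that pericytes need, was at 467 CPM against 49.5 CPM in the other members, Vtn (vitronectin) at 622 against 54.5 CPM and Atp13a5 at 1011 against 139 CPM, which follows from how they were chosen. Gate genes were at 5018 CPM against 5096 CPM, which the endothelial gate fixes in part. The outside endothelial markers, which neither rule used, were at 4785 CPM against 3650 CPM. The 27 hold no member of Trained 1, where all members stood lowest in these markers (2505 CPM). They hold 11 of Trained 2, where members stood highest (5091 CPM). The part of this mix of libraries in the difference was not tested. Mecom stood at 817 CPM against 787 CPM. In the 41 mural barcodes that did not pass the endothelial gate, gate genes were at 884 CPM and outside endothelial markers at 1692 CPM. Mural genes and outside endothelial markers were thus both present in this group. Its median depth of 710, 737 and 642 UMIs in Trained 2, Untrained 1 and Untrained 2 was close to the 735, 672 and 715 UMIs of the other members. Whether such a barcode held 1 nucleus or 2 was not tested.

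The share of kept barcodes that were members was 0.0811% (exact 95% interval 0.0443 to 0.136) in Trained 1, 0.340% (0.260 to 0.436) in Trained 2, 0.390% (0.321 to 0.470) in Untrained 1 and 0.492% (0.388 to 0.616) in Untrained 2. Both trained libraries lay below both untrained ones, and Trained 1 lay far below the rest. The means were 0.211% ± 0.183 (SD, n = 2) and 0.441% ± 0.0723 (SD, n = 2), a difference of -0.231 percentage points (exact two-sided permutation p = 0.33, the smallest that 2 against 2 libraries allow). Without Trained 1 the difference was -0.101 percentage points and without Trained 2 it was -0.36. The intervals cover counting error only.

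Depth differed between libraries. Outside the members the median was 530, 737, 708 and 947 UMIs, so Trained 1 was lowest and Untrained 2 highest in both depth and share, while Trained 2 and Untrained 1 stood in the opposite order in the 2 measures. With every barcode thinned to 400 UMIs the shares were 0.0463% and 0.156% in Trained 1 and Trained 2 against 0.167% and 0.285%. Among barcodes with at least 1000 UMIs they were 0.253% (2 of 791) and 0.329% against 0.388% and 0.371%, and the interval of Trained 1, 0.0306% to 0.910%, held all of the others. With at least 5 gate UMIs the groups overlapped, at 0.0174% and 0.134% against 0.0886% and 0.194% (exact permutation p = 0.667). A lower share of endothelial nuclei and less vessel RNA per nucleus cannot be told apart by this gate.

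**Figure D4:**
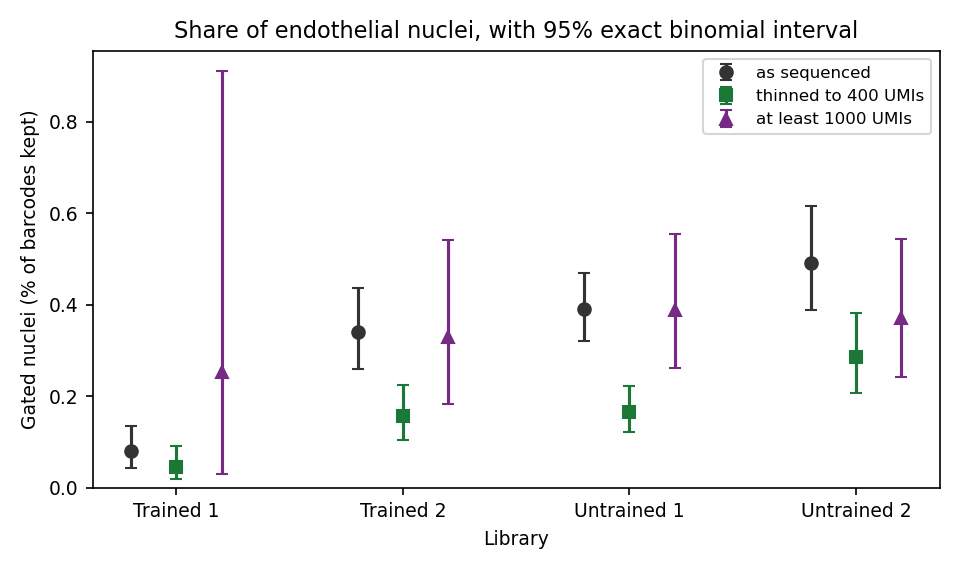
Endothelial nuclei as a percent of kept barcodes in each library, as sequenced (circles), with every barcode thinned to 400 UMIs (squares) and among barcodes with at least 1000 UMIs (triangles); bars are 95% exact binomial intervals and cover counting error only. Trained 1 lies lowest in each series, and among barcodes with at least 1000 UMIs its interval spans those of the other libraries.

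Gene expression in members was then compared between trained and untrained libraries. Counts were summed for each library, and 1444 genes passed the count filter. None was called at an adjusted p of 0.05 (0%) in edgeR's quasi-likelihood F test, adjusted after Benjamini and Hochberg, where the smallest adjusted p was 0.438, and DESeq2's Wald test called 0 as well. At an unadjusted p under 0.05 edgeR listed 78 genes (5.4%), 40 higher and 38 lower, and DESeq2 9. For 495 genes (34.3%) the 2 groups of libraries did not overlap. In simulated data with these libraries' depths the test recovered 0% of 179 genes changed 2-fold, 59.3% of 189 changed 4-fold and 98.5% of 198 changed 8-fold. No 2-fold change was thus recovered in this simulation, which gave every gene the same dispersion. Well-counted genes were not looked at apart, so the power for a single gene was not tested.

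Of the genes with the smallest unadjusted p among those whose groups did not overlap, 15 are given as values, since none passed the adjustment; each had an adjusted p of 0.904 in edgeR's test. Levels here are CPM of the genes tested, after TMM scaling. Ttr, which encodes the thyroid hormone carrier transthyretin made by the choroid plexus, stood at 2256 and 2570 CPM in Trained 1 and Trained 2 and at 877 and 1259 CPM in Untrained 1 and Untrained 2, a log2 difference of 1.22 (SE 0.38). Other barcodes of the same libraries differed by 1.44 (SE 0.18, adjusted p = 0.794), astrocyte-gated nuclei by 1.48 (SE 0.25, adjusted p = 1.46e-05) and barcodes of very low depth, taken as a profile of free RNA, by 1.47 (SE 0.31). The Ttr difference between trained and untrained libraries was thus of similar size in the 4 kinds of barcode compared. In the interaction tests described below, which called no gene, Ttr had log2 values of -0.63 (SE 0.41) and -0.35 (SE 0.31). The first is against other barcodes and the second against astrocyte-gated nuclei.

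St6galnac3, a sialyltransferase, gave 3, 28, 12 and 15 UMIs in Trained 1, Trained 2, Untrained 1 and Untrained 2, at 483 and 1091 CPM against 234 and 385 CPM (log2 difference 1.59, SE 0.51). Its relative St6galnac5 gave 0, 4, 26 and 17 UMIs, at 0 and 156 CPM against 507 and 437 CPM (-1.90, SE 0.67). The pair of sialic acid enzymes lay in opposite directions, each on few UMIs in Trained 1. Hmcn1, the matrix gene described above as a leading gene of the members, gave 4, 27, 17 and 17 UMIs, with a log2 difference of 1.29 (SE 0.49). Without Trained 2 the values of St6galnac3 and Hmcn1 went to 0.56 and 0.65.

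Also on the higher side were the proteoglycan gene Spock1 (1.54), the adhesion gene Pcdh9 (0.87), the cofactor gene Zfpm2 (1.40), the signalling adaptor Gab1 (1.46) and Mllt3 (1.28). Pcdh9, with 57, 139, 206 and 138 UMIs, was the best counted of these, at 9184 and 5414 CPM against 4014 and 3546 CPM, and without Trained 1 its value went to 0.46. Without Trained 2, Zfpm2 went to 0.75, Gab1 to 0.58 and Aldoa to -3.17. Lower in trained members were Dcaf6 (-2.15), the histone variant gene H2afz (-1.82), Iqsec1 (-1.70), the glycolytic enzyme gene Aldoa (-1.28), Oaz1 (-1.48) and Impact (-2.30). Aldoa gave 1, 18, 81 and 45 UMIs, at 161 and 701 CPM against 1578 and 1156 CPM. Neurons express Pcdh9 and Aldoa strongly, and the part of neuronal RNA in these values was not tested.

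**Figure D5:**
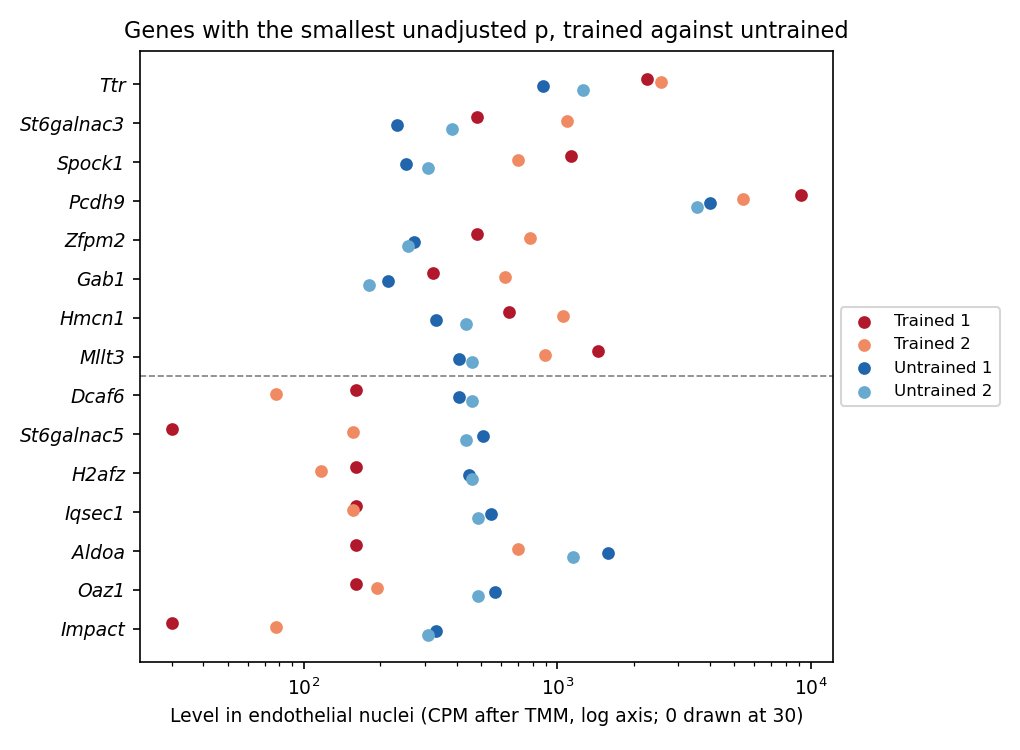
Levels of 15 of the genes with the smallest unadjusted p among genes whose groups do not overlap (rows; higher in trained above the dashed line, lower below it), in CPM of tested genes after TMM scaling on a log axis, 1 point for each library and levels of 0 drawn at 30. Trained and untrained points separate in each row because the rule asked for it, and none of the 15 passed the adjusted threshold.

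Vessel genes as groups showed no called member. Of the 8 gate genes, which the gate fixes in part, 7 had a log2 difference above 0, with a median of 0.31; of 9 outside endothelial markers tested 8 did, with a median of 0.20; over all 1444 genes 679 did, with a median of -0.04. Flt1, at 1933 and 4167 CPM against 3371 and 3084 CPM, overlapped between groups (0.07, SE 0.33). Mecom, at 806 and 2142 CPM against 1130 and 1593 CPM, also overlapped (0.35, SE 0.40). Its 2 trained libraries lay on both sides of the untrained ones.

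Of 9 barrier transporters tested, 7 had a log2 difference above 0 and 1, Tfrc, reached an unadjusted p under 0.05 on the lower side. The transferrin receptor gene stood at 161 and 195 CPM against 546 and 334 CPM (-1.24, SE 0.61). Slc39a10, a zinc importer, stood at 0 and 273 CPM against 487 and 488 CPM (-1.17, SE 0.60). Fth1, the ferritin heavy chain that stores iron, stood at 2739 and 3349 CPM against 5456 and 4857 CPM (-0.72, SE 0.31). Fth1 was also below 0 in other barcodes (-0.52, SE 0.22), astrocyte-gated nuclei (-0.51, SE 0.21) and low-depth barcodes (-0.39, SE 0.33). Tfrc was near 0 there, at 0.0027 (SE 0.14), -0.05 (SE 0.53) and -0.07 (SE 0.13). Of the 4 iron genes tested, Cp and Trf lay above 0, at 0.50 and 0.38. Adjusted p was 0.904 for Tfrc, Slc39a10 and Fth1 by edgeR's test.

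Among 6 capillary genes tested, 5 lay above 0, with a median of 0.88. At an unadjusted p under 0.05 in edgeR's test, 3 of the 6 were higher and 1 was lower. Beside Hmcn1, Ivns1abp stood at 322 and 545 CPM against 175 and 206 CPM (1.36, SE 0.60) and Rgs5 at 483 and 974 CPM against 351 and 488 CPM (1.01, SE 0.50). For Rgs5 the groups overlapped. Atp13a5, the mural marker, stood at 806 and 779 CPM against 351 and 283 CPM (1.29, SE 0.50). Mural markers summed to 867 and 1656 CPM in trained members and to 748 and 873.5 CPM in untrained ones, so the groups overlapped. These sums are CPM of all genes, a scale unlike the CPM of tested genes given here for single genes. Rgs5 belongs to both lists and is part of the sums. The transcription factor gene Zfp366 (1.22, SE 0.55) and the co-receptor gene Tgfbr3 (1.24, SE 0.60) were the only others of the vessel lists with an unadjusted p under 0.05 and a value above 0.

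Cytosolic ribosomal protein genes were the largest list tested. Of 68, 59 had a log2 difference below 0, with a median of -0.55, against 765 of all 1444 genes, with a median of -0.04. None was called, and 5 had an unadjusted p under 0.05 in edgeR's test, all lower, against 38 lower among all 1444 genes. The groups did not overlap for 34 of the 68 (50%), against 34.3% of all genes. The median of the same genes was -0.43 in other barcodes and -0.38 in astrocyte-gated nuclei of the same libraries. Trained members also had the lower mitochondrial shares, whose part in this was not tested. Glucocorticoid response genes, of which Klf9, Zbtb16, Nr3c1 and Mt1 were tested, had a median of -0.07. No immediate early gene passed the count filter in members. Arc gave 0, 5, 1 and 5 UMIs and Fos 0, 2, 1 and 2 UMIs in Trained 1, Trained 2, Untrained 1 and Untrained 2, too few for a comparison.

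Whether training moved endothelial nuclei differently from the rest was tested as an interaction with the library as a block. Against all other barcodes 0 of 15559 genes (0%) were called by edgeR's quasi-likelihood test, with 414 at an unadjusted p under 0.05 and a smallest adjusted p of 1. Only 1444 genes had passed the count filter in members themselves, so most of the 15559 entered through counts of the other barcodes. Limited to those 1444, edgeR's test called 0, with 58 at an unadjusted p under 0.05 and a smallest adjusted p of 0.998. Against astrocyte-gated nuclei edgeR's test called 0 of 2590 (0%), with 118 at an unadjusted p under 0.05 and a smallest adjusted p of 0.780. Over all genes tested the median log2 interaction was -0.39 against other barcodes and -0.07 against astrocyte-gated nuclei, a shift that each value below includes. St6galnac5 and Dcaf6 had the smallest p on the lower side against other barcodes, with log2 interactions of -2.66 (SE 0.74) and -2.78 (SE 0.78). In other barcodes St6galnac5 stood at 461, 437, 314 and 418 CPM and Dcaf6 at 167, 176, 146 and 168 CPM in Trained 1, Trained 2, Untrained 1 and Untrained 2. Ccdc148 and Iqsec1 (-2.24, SE 0.68) followed, and Ccdc148 was at 0 UMIs in both trained libraries and at 10 and 6 in the untrained ones. On the higher side stood Zdhhc9 and Hps5, each at 0 UMIs in both untrained libraries, Abl1 (2.54, SE 1.03) and Pdap1 (1.70, SE 0.71). Against astrocyte-gated nuclei Galntl6 (-1.35, SE 0.34), Ksr2 (-2.81, SE 0.89), Celf2 (-0.67, SE 0.22) and again St6galnac5 (-2.25, SE 0.71) were lowest by p, and Pcdh9 (0.67, SE 0.21), Ndufab1 (2.02, SE 0.65), Mbtd1 (1.90, SE 0.62) and Pdap1 (2.20, SE 0.74) highest. Each of these had an adjusted p of at least 0.780 by edgeR's test, so no gene was shown to respond in endothelial nuclei alone.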

How the data were processed

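Per the labels' protocols, nuclei of 4 hippocampus libraries (2 Trained, 2 Untrained) were captured with Chromium 3' chemistry in its version 3.1. The authors deposited UMI counts of 32285 genes per barcode; per the file headers these came out of Cell Ranger 7.0.0, while the submitters' processing notes list Cell Ranger 8, STAR and GRCm39. No genome position of that build was used. The members and the 29 gene lists were chosen with earlier results of these data known. No doublet caller was run; alternatives leave out members with UMIs of other classes or over 2000 UMIs.

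Counts were summed per library, the unit of replication, and fitted in R 4.3.3 with edgeR 4.0.16 (filterByExpr, TMM, quasi-likelihood F test, Benjamini-Hochberg over all genes tested, threshold 0.05), with DESeq2 1.42.0 as an alternative. The standard error is that of the log2 change. The fit was tested on simulated data. Shares were compared by exact permutation over 6 splits. Astrocyte-gated nuclei passed a like gate of 8 astrocyte genes. Their sum had to exceed that of genes of other classes, Flt1, Cldn5, Adgrl4, Slco1a4 and Ptprb among them. The 3 barcodes that passed both gates were counted as members alone. Low-depth barcodes were those up to 1.25 times the mode of UMIs, a limit that lay above the UMI minimum in Untrained 1. Named genes were the gate genes, the 20 with the largest ratio outside the gate (at least 20 UMIs, higher in all 4 libraries), vessel list genes with at least 20 UMIs, the 8 in each direction with the smallest p among non-overlapping genes, up to 4 tested genes of each list and 4 in each direction of each interaction. A gene of the training comparison that this rule names is not reported here. Mitochondrial, ribosomal protein, predicted and sex-linked genes were left out of rankings. A few genes under 20 UMIs, such as Cdh5, Kdr, Adgra2, Arc and Fos, were named after their values were seen. Python 3.11.15 with numpy 2.4.6, scipy 1.17.1, pandas 2.3.3 and matplotlib 3.10.9 was used.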

Additional observations from a re-analysis of the deposited data

How the results depend on the processing

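The count of genes changed with training was 0 and stayed 0 with DESeq2 (test or size factors), with at least 1000 UMIs, a library-specific UMI minimum, at least 5 gate UMIs, no UMI of other classes, thinning to 400 UMIs, at most 1% mitochondrial UMIs, the low-depth profile subtracted and, added after the data were seen, members over 2000 UMIs left out. Without the count filter it was 1 (Gm42418), and leaving out 1 library in turn gave 0 to 2: 1 without Trained 1 (Gm42418), 2 without Trained 2 (Gm42418 and AY036118), both rRNA-like transcripts and lower in trained members; the cause was not tested. With replicate number as a block the count was 0, with 49 genes at an unadjusted p under 0.05 against 78; same-numbered libraries' deviations correlated at 0.03, so the numbers are not taken to pair the mice. The 15 named training genes kept their direction in all 192 values under alternatives. A further 48 values could not be had because the gene was not tested. Since these genes were chosen for groups that do not overlap in the same libraries, their direction was largely fixed in advance. Their size leaned on single libraries: without Trained 2, St6galnac3 went to 0.56, Gab1 to 0.58, Zfpm2 to 0.75, Hmcn1 to 0.65 and Aldoa to -3.17, and St6galnac5 and Impact were left with a trained library at 0 UMIs; without Trained 1, Pcdh9 went to 0.46.

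The difference in share was negative under every alternative run, from -0.36 percentage points (without Trained 2) to -0.0659 (at least 5 gate UMIs); it was -0.0887 with at least 1000 UMIs and -0.101 without Trained 1. Of the 20 outside markers, 14 were higher in all libraries; 3 were with at least 1000 UMIs and 4 with at least 5 gate UMIs, where Trained 1 keeps 2 and 3 members, and 14 to 20 were when each library was left out. Both interactions called 0 genes in all alternatives run. Depth limits every value of Trained 1, where 1 UMI is worth 96.3 CPM of all genes. In CPM of the genes tested, after TMM scaling, it is worth 161 CPM.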

Other observations

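Other vessel genes were seen in members on few UMIs. Cp, the copper-binding ferroxidase that helps iron leave cells, gave 1, 9, 7 and 12 UMIs in Trained 1, Trained 2, Untrained 1 and Untrained 2, with a log2 ratio of 2.63 over other nuclei. Ramp2, the partner of the adrenomedullin receptor, gave 2, 4, 5 and 8 UMIs (1.82), and S1pr1, a receptor for sphingosine phosphate, 0, 8, 5 and 10 UMIs (1.94), with 73.2 CPM in astrocyte-gated nuclei. Of genes of caveolae, the vesicles that the barrier keeps few of, Cavin2 gave 15 UMIs in all (2.20) and Cav1 gave 7. Of genes of vascular activation, Nfkbia gave 0, 7, 3 and 10 UMIs (2.10), Vcam1 4 in all, Icam1 1 and Lcn2 0. The fibroblast marker Cped1 gave 0, 7, 9 and 7 UMIs (2.41), while Dcn and Col1a1 gave 2 each, all in Untrained 1. These genes were named after their values were seen, and none of these values was tested.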
